A study of Mus musculus with 35 samples.

Results

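The genes described here are 10 mouse host genes of small nucleolar RNAs, chosen by symbol: Gas5, Snhg1, Snhg3, Snhg4, Snhg5, Snhg6, Snhg8, Snhg12, Zfas1 and Epb41l4aos. They make up 11 of the 54354 entries in the count table, because Snhg4 stands there as 2 entries. The libraries came from colon tumour organoids of the AKP genotype, cultured in vitro, and the AKP genotype is shared by every group, controls included. In the first experiment 15 libraries were treated with carmofur, an inhibitor of ceramidase, and 12 were its controls. In the second, 3 libraries (batch 1) and 2 libraries (batch 2) were treated with palmitic acid, a saturated fatty acid, and 3 were their controls, which both batches share. The series asked how fatty acid and ceramide levels affect transcription in these organoids. Whether a difference with carmofur came through ceramidase or through another action of the drug was not tested. The labels state neither dose, nor treatment time, nor how many independent organoid cultures were used, and each p-value reflects variation among these libraries alone, which may be technical.

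Small nucleolar RNAs guide the chemical modification of ribosomal and other RNAs, box C/D RNAs for ribose methylation and box H/ACA RNAs for pseudouridylation. In mammals most of them are cut out of the introns of a host gene, and the spliced exons are left as the host RNA. The spliced RNAs of several non-coding hosts are known to be held low by nonsense-mediated decay, which depends on translation, and Gas5 was named for its accumulation in growth-arrested cells. Several hosts, like ribosomal protein genes, begin with a pyrimidine tract, the 5′ terminal oligopyrimidine motif that ties an RNA's translation to growth signals.

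In the GENCODE M21 annotation (GRCm38) each of the 10 hosts held at least 1 gene typed as a small nucleolar RNA, 35 identifiers at 33 distinct loci. Each lay in an intron of at least 1 host transcript, and most also overlapped an exon of another annotated transcript of the same host. Gas5 held the most, 10 identifiers at 9 loci, followed by Snhg1 with 8 and Snhg12 with 5 identifiers. Of 32 sequences examined, 19 carried both a C box (ATGATGA or GTGATGA in the first 20 bases, on the transcribed strand) and a D box (CTGA in the last 20 bases). The following 5 are shown because they represent the cargo of the hosts that the results turn on, with the C box, the D box or the 3′ ACA in capitals. Snord47 lies in Gas5 at chr1:161038082-161038158 (plus strand), Snord12 in Zfas1 at chr2:167065276-167065365 (plus), Snord50a and Snord50b in Snhg5 at chr9:88521529-88521600 and chr9:88521797-88521868 (both minus), and Snora24 in Snhg8 at chr3:123507937-123508066 (minus).
Snord47: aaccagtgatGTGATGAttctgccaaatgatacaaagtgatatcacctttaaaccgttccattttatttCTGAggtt
Snord12: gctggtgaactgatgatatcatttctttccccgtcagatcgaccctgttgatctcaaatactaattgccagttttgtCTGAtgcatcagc
Snord50a: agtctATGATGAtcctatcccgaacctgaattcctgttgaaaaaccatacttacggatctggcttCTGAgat
Snord50b: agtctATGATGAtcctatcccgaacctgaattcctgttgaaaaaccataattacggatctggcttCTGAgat
Snora24: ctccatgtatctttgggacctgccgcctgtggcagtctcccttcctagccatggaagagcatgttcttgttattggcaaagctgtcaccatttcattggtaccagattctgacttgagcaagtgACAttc
Snord50a and Snord50b are both 72 bases long and identical at 71 of them. Snord12 showed a D box but no C box of these letters, and Snora24 showed neither box, as a box H/ACA RNA. These libraries were selected for poly(A), and the intronic small RNAs themselves were almost unmeasured: the 30 identifiers listed in the count table held 419 counts in all over 35 libraries, and 13 held none. The Snhg3 loci held 268 of these counts, and neither Snord50a nor Snord50b is among the 30.

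RefSeq promoters (GRCm38.p6) were matched for 7 of the 10 hosts, 8 start sites in all. A pyrimidine tract was counted where a C and the bases after it formed a run of at least 5 pyrimidines (C or T) on the transcribed strand, beginning within 10 bases of the start site. By this rule 5 of the 7 hosts carried a tract: Gas5, Snhg3, Snhg5, Snhg8 and Snhg12. Counted by promoter, the same rule matched 5 of the 8 host promoters, 30.7% of 32851 RefSeq promoters and 40 of 70 ribosomal protein promoters. Windows from 30 bases before to 30 bases after the start are shown for 4 hosts, to set Gas5 beside 2 other hosts with a tract and Snhg1 without one by this rule, with the tract in capitals. They lie at chr1:161035136-161035195 (plus), chr3:123508307-123508366 (minus), chr4:132308648-132308707 (plus) and chr19:8723457-8723516 (plus).
Gas5: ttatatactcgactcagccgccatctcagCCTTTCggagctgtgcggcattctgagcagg
Snhg8: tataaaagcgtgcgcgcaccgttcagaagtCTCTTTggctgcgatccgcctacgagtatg
Snhg12: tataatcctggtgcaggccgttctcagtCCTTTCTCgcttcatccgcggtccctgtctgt
Snhg1: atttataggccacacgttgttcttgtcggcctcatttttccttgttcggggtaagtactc
A second annotated Gas5 start, upstream of this one, had no tract by this rule, nor had Zfas1. The Snhg1 window does hold a pyrimidine run just after the start, which begins with T and is not counted. A match describes the letters in the window and not the use of the start site in these organoids.

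Library totals ran from 3127275 to 10609563 estimated counts with carmofur and 1663750 to 8124707 in its controls, from 2138905 to 2845017 in palmitic acid batch 1, 2406582 to 3742289 in batch 2 and 762888 to 2511723 in their controls. A count of 0 allows a level of at most 0.283 to 3.93 CPM (counts scaled to the library total, with TMM normalisation), the range over libraries of 3 counts of the total, which covers counting error only. Of the 8 epithelial markers Epcam, Krt8, Krt18, Krt19, Cdh1, Cdx2 and Vil1 were detected in all 35 libraries, and Krt20, a keratin of differentiated intestinal cells, in 31. The 9 mesenchymal markers summed to at most 4.27 CPM in a carmofur library and 6.43 CPM in a carmofur control library, and Cd3e, Adgre1 and Csf1r among the immune markers were at 0 in all 35. The immune sum, 7.29 to 156 CPM with carmofur and 25.5 to 92.0 CPM in its controls, was almost wholly Cd68, a lysosomal protein. The 6 endothelial and blood markers summed to at most 23.5 CPM in a carmofur library and 23.8 CPM in a carmofur control library. Among them Pecam1 was detected in all 35 libraries, at a mean of 12.6 CPM, and Vwf in 15. In bulk RNA, fewer cells that express a gene and less of its RNA per cell cannot be told apart.

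Gas5 was the most abundant host by a wide margin. Its level per kilobase of median transcript length was 501 CPM per kb with carmofur and 708 CPM per kb in its controls (means of 15 and 12 libraries), and it was 991 CPM per kb in palmitic acid batch 1, 994 and 1006 CPM per kb in the 2 libraries of batch 2 and 1145 CPM per kb in their controls. In the carmofur controls Snhg3 (89.3 CPM per kb), Snhg8 (87.0) and Zfas1 (73.8) came next, then Snhg1 (48.0), Snhg6 (42.2) and Snhg5 (31.98), and last Epb41l4aos (12.1), the non-coding Snhg4 entry (10.7) and Snhg12 (9.82). Beyond Gas5, whose lowest control library (515 CPM per kb) lay above the highest library of every other host (239 CPM per kb, Snhg3), the ranges of neighbours in this order overlapped. Gas5 held 61.0% ± 3.28 of the summed CPM of all 10 hosts with carmofur and 64.3% ± 5.07 in its controls (SD, n = 15 and 12). The experiments were separate, so a level set across them may carry a difference in library preparation or in the transcripts used for quantification.

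**Figure D1:**
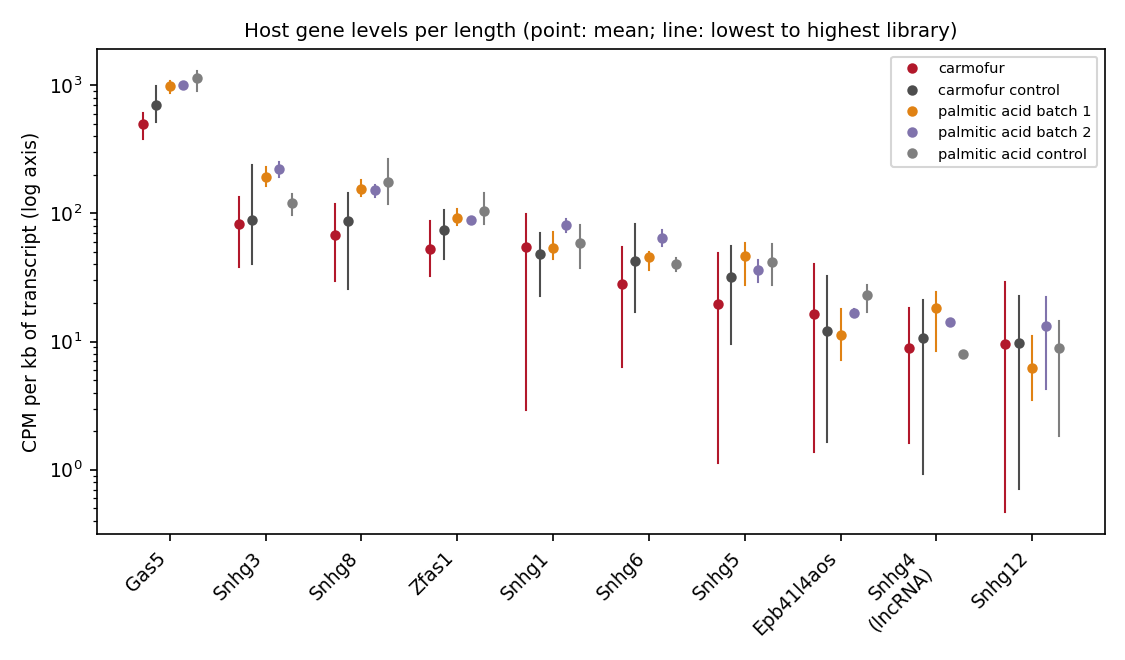
Level of each host gene per kilobase of median transcript length (CPM per kb, log axis) in the 5 groups; points are group means and lines run from the lowest to the highest library. Gas5 averaged 501 CPM per kb with carmofur and 708 CPM per kb in its controls, and every other host lay below it in every group.

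Gas5 fell with carmofur, and it alone among the 10 hosts passed the test. Gas5 ran from 238 to 381 CPM with a median of 317 CPM in the 15 carmofur libraries, and from 324 to 627 CPM with a median of 427 CPM in the 12 controls. All 15 carmofur libraries lay below the control median, 9 lay below every control, and 9 controls lay above every carmofur library. The log2 fold change was -0.51 ± 0.09 (SE; 95% interval -0.70 to -0.32; edgeR quasi-likelihood test with Benjamini-Hochberg adjustment, adjusted p = 0.000125), a 1.43-fold lower level. Of all 9992 genes tested 3.8% were called lower and 5.21% higher, against 1 of the 10 hosts lower and 0 higher. The median log2 fold change of the hosts was -0.34, against 0.00 over all genes, and 8 of 10 hosts were below 0, as were 49.8% of all genes.

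The carmofur libraries carry numbers that fall into 3 blocks of 12 consecutive numbers and 9 sets of 3, which the labels do not call batches. Gas5 averaged 289 ± 31.1 CPM with carmofur and 393 ± 66.9 CPM in controls in the first block (n = 6 and 3), 319 ± 54.4 and 405 ± 53.6 CPM in the second (n = 6 and 3), and 359 ± 21.6 and 492 ± 97.9 CPM in the third (n = 3 and 6). The log2 ratios of these means were -0.44, -0.35 and -0.45. Groups did not overlap in the first block and overlapped in the other blocks. By set, the 5 carmofur means ran from 277 to 360 CPM and the 4 control means from 393 to 550 CPM, so the set means did not overlap. The call was lost when each set of 3 was summed into 1 sample (log2 fold change -0.52, adjusted p = 0.0676) and within each block alone (adjusted p = 0.0562, 0.267 and 0.123). Carmofur replicates 8 and 10 and control replicate 1, singled out in earlier work on these data, were left out as an alternative, and Gas5 kept its call (log2 fold change -0.53, edgeR adjusted p = 0.000102). Mitochondrial transcripts made up 5.21 to 7.15% of the counts with carmofur and 4.64 to 6.41% in controls, and the 8 epithelial markers summed to 1704 to 2579 CPM with carmofur and 1561 to 2328 CPM in controls. Of these 8 markers 1 passed the test, Krt20, which rose to 29.96 ± 9.94 CPM with carmofur, against 4.15 ± 4.08 CPM in controls (log2 fold change 2.82 ± 0.51, edgeR adjusted p = 0.000101). The part of these values in the Gas5 difference was not tested.

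**Figure D2:**
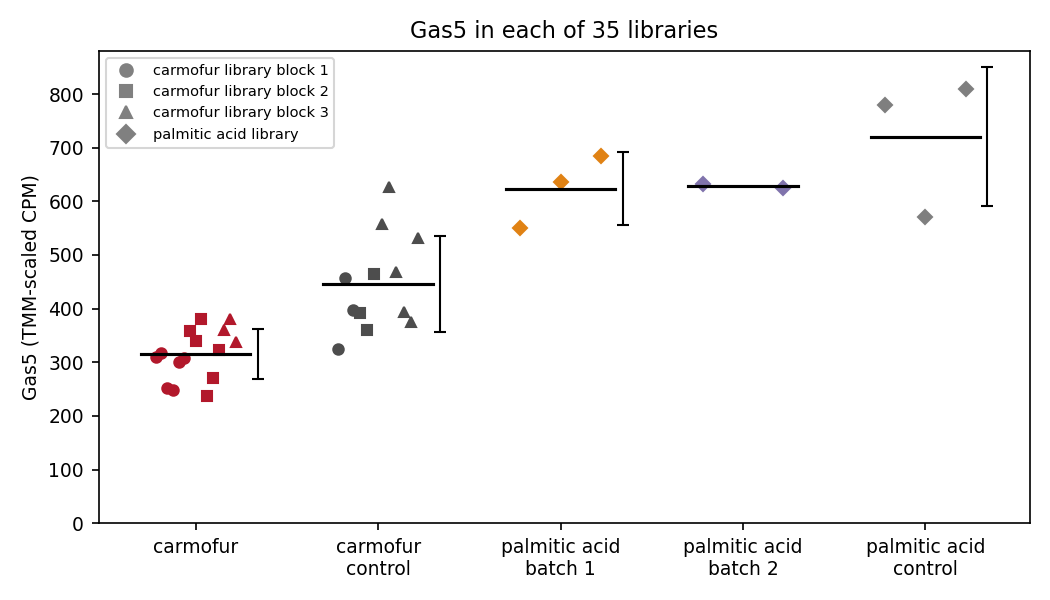
Gas5 in each of 35 libraries, in TMM-scaled CPM, with the group mean as a line, the SD as a bar where a group has 3 or more libraries, and the carmofur library block as the symbol. The 15 carmofur libraries lie between 238 and 381 CPM and the 12 carmofur controls between 324 and 627 CPM.

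Zfas1, a host transcribed from the 5′ end of Znfx1 on the opposite strand, had a difference of similar size that missed the threshold. It ran from 23.8 to 63.5 CPM with a median of 35.7 CPM with carmofur, and from 32.3 to 78.0 CPM with a median of 49.1 CPM in controls. The log2 fold change was -0.51 ± 0.19 (SE; 95% interval -0.89 to -0.13), with an adjusted p of 0.0862 by edgeR, and it was below 0 in all 3 blocks. Zfas1 passed the threshold with DESeq2 (adjusted p = 0.0439) and without library set 9, which is 3 controls (adjusted p = 0.0483), and in none of the other 20 alternatives.

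Snhg5, Snhg6 and Snhg8 had lower medians with carmofur without passing the test. Snhg5, the host of the Snord50 pair, ran from 0.944 to 40.6 CPM with a median of 15.2 CPM with carmofur, and from 7.90 to 46.6 CPM with a median of 25.9 CPM in controls. Its log2 fold change was -0.73 ± 0.43 (edgeR adjusted p = 0.384), and 6 carmofur libraries lay below every control. Snhg6, the host of Snord87, had medians of 14.1 CPM with carmofur and 21.8 CPM in controls and a log2 fold change of -0.62 ± 0.32 (adjusted p = 0.289). Snhg8, the host of Snora24, had medians of 36.6 and 47.2 CPM in the same order and a log2 fold change of -0.39 ± 0.23 (adjusted p = 0.400). For Snhg5 and Snhg6 the block means were lower with carmofur in all 3 blocks, and for Snhg8 in 2.

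For the other 5 hosts the difference was small against its error. Snhg1, which carries 8 small nucleolar RNAs including Snord22, had a median of 35.2 CPM with carmofur and 31.6 CPM in controls, and 1 carmofur library stood at 1.77 CPM, below every control. Its log2 fold change was 0.17 with a 95% interval of -0.40 to 0.73. Snhg3, the host of Snora73a and Snora73b, had medians of 30.8 CPM with carmofur and 33.7 CPM in controls (log2 fold change -0.12, interval -0.62 to 0.38). Snhg12, the host of Snora16a, Snora44, Snora61 and Snord99, ran from 0.429 to 26.7 CPM with carmofur and from 0.647 to 20.7 CPM in controls, with a log2 fold change of -0.04 and an interval of -1.13 to 1.05. The non-coding Snhg4 entry (log2 fold change -0.29, interval -1.13 to 0.54) and Epb41l4aos (0.42, interval -0.74 to 1.59) also had wide intervals. The Snhg4 entry had lower means with carmofur in all 3 blocks. A p that misses the threshold does not show that these levels did not differ.

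With carmofur the spread between libraries far exceeded counting error, for Gas5 as well as for the less abundant hosts. In the carmofur libraries the coefficient of variation was 78.8% for Snhg5, 76.1% for Snhg12 and 65.1% for Epb41l4aos, where counting alone would give 10.04%, 13.01% and 15.7%. For Gas5 it was 14.8% with a counting share of 2.23%, the smallest spread among the hosts in that group.

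**Figure D3:**
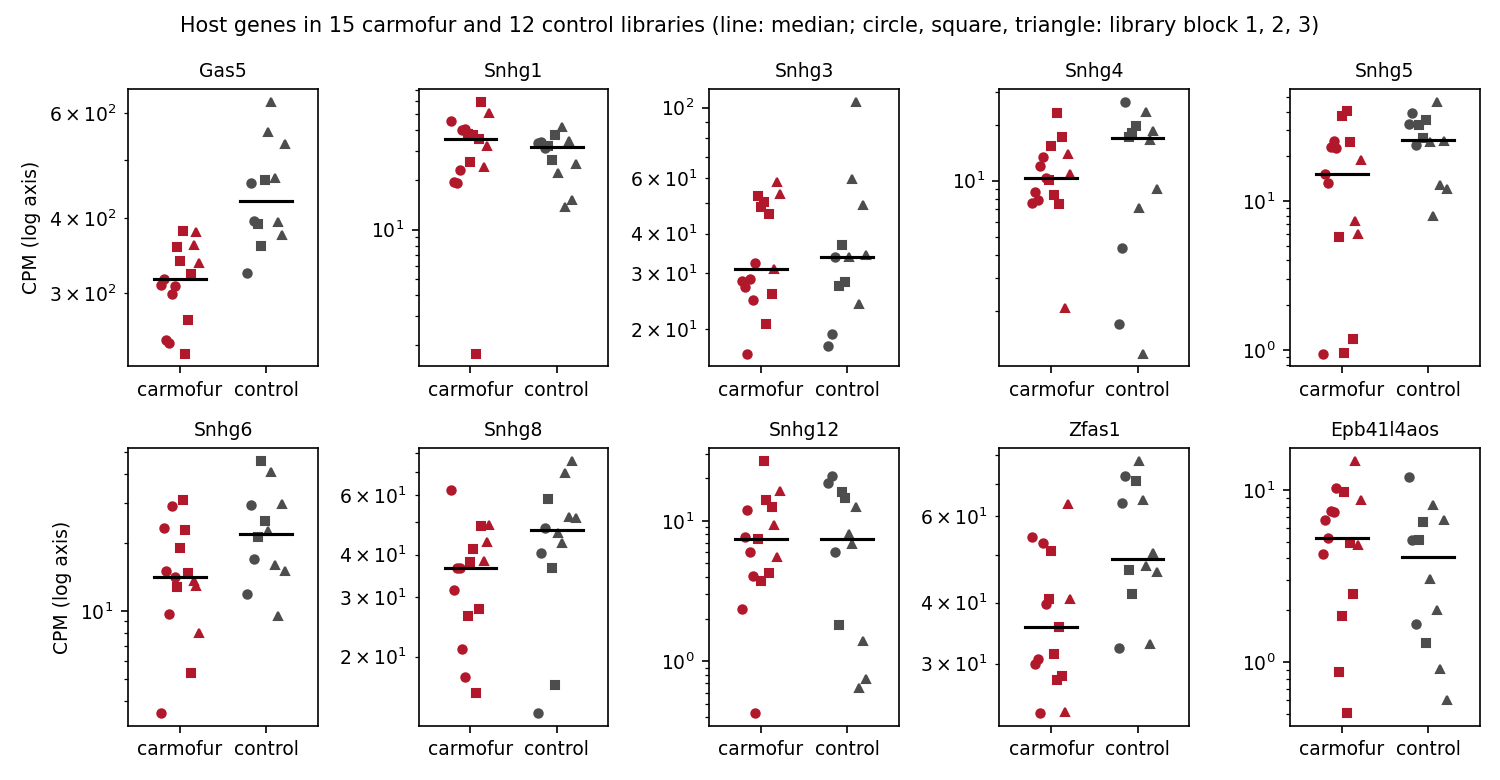
Each host gene in 15 carmofur and 12 control libraries, in CPM on log axes that differ by panel, with medians as lines and library blocks as symbols; for Snhg4 the non-coding entry is drawn. Gas5 shows the narrowest spread and the clearest shift, with medians of 317 CPM with carmofur and 427 CPM in controls.

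Snhg4 needs its entries kept apart. One entry is non-coding, and the other is typed protein-coding and runs on into Matr3, with 84.2% of its 31-base words shared with other genes, Matr3 above all. The protein-coding entry held 0, 106 and 103 counts in palmitic acid batch 1, 103 and 43 in batch 2 and 54, 90 and 83 in their controls, but 0 in all 27 libraries of the carmofur experiment. It was 1 of 5 genes in the table with at least 100 counts over the palmitic acid libraries and none in the carmofur experiment. Counts of this entry may be split with Matr3 by the quantification, and its values are uncertain. Whether both experiments were quantified against the same set of transcripts is not stated in the labels, so its 0 counts in the carmofur experiment are not read as absence of the RNA.

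No host passed the threshold with palmitic acid in either batch. In batch 1, 0.315% of 9845 genes were called higher and 0.244% lower, and in batch 2 0.183% and 0.142%, against 0 of 11 host entries in each. Unadjusted p was under 0.05 for 2 entries in batch 1 and 1 in batch 2. Both batches were set against the same 3 controls, so their values are not independent of each other.

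Snhg3 had the lowest p of the hosts in both batches. It stood at 82.6, 71.4 and 99.9 CPM in batch 1, 83.7 and 109.9 CPM in batch 2, and 42.4, 62.0 and 55.0 CPM in the controls. All 5 treated libraries lay above all 3 controls. The log2 fold change was 0.65 ± 0.25 in batch 1 (95% interval 0.15 to 1.15; edgeR adjusted p = 0.431) and 0.84 ± 0.27 in batch 2 (interval 0.29 to 1.39; adjusted p = 0.248), and it was above 0 and not called in any of 16 alternatives in batch 1 and 15 in batch 2. The non-coding Snhg4 entry also lay above every control in all 5 treated libraries, at 28.2, 10.8 and 31.1 CPM in batch 1, 17.2 and 18.8 CPM in batch 2 and 10.61, 9.58 and 10.52 CPM in the controls. Its log2 fold changes were 1.19 and 0.81 (adjusted p = 0.575 and 0.903), and they turned to -0.12 and -0.47 when both Snhg4 entries were summed. In batch 1, 2 of 11 entries lay wholly above the controls, where 6.75% of all genes did, and 0 lay wholly below, where 6.16% of all genes did. In batch 2, 3 entries lay wholly above, Snhg6 among them, where 10.9% of all genes did, and 1 lay wholly below, the protein-coding Snhg4 entry, where 8.96% of all genes did.

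Gas5 stood at 549, 636 and 684 CPM in batch 1, 633 and 625 CPM in batch 2, and 780, 572 and 810 CPM in the controls. The groups overlapped, and the log2 fold changes were -0.21 ± 0.13 and -0.20 ± 0.15 (adjusted p = 0.770 and 0.918). Epb41l4aos, at 3.18, 2.62 and 6.52 CPM in batch 1, 5.74 and 6.54 CPM in batch 2 and 9.28, 6.24 and 10.04 CPM in the controls, rested on 7 to 21 counts per library, with log2 fold changes of -1.04 and -0.46. Snhg6 had log2 fold changes of 0.18 and 0.68, and the protein-coding Snhg4 entry -0.67 and -0.999, in batch 1 and batch 2. The remaining hosts, Snhg1, Snhg5, Snhg8, Snhg12 and Zfas1, had log2 fold changes between -0.46 and 0.20 in batch 1 and between -0.22 and 0.65 in batch 2. Batch 2 set against batch 1 directly called 0 hosts, where 0.0609% of genes were called higher and 0.0406% lower.

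**Figure D4:**
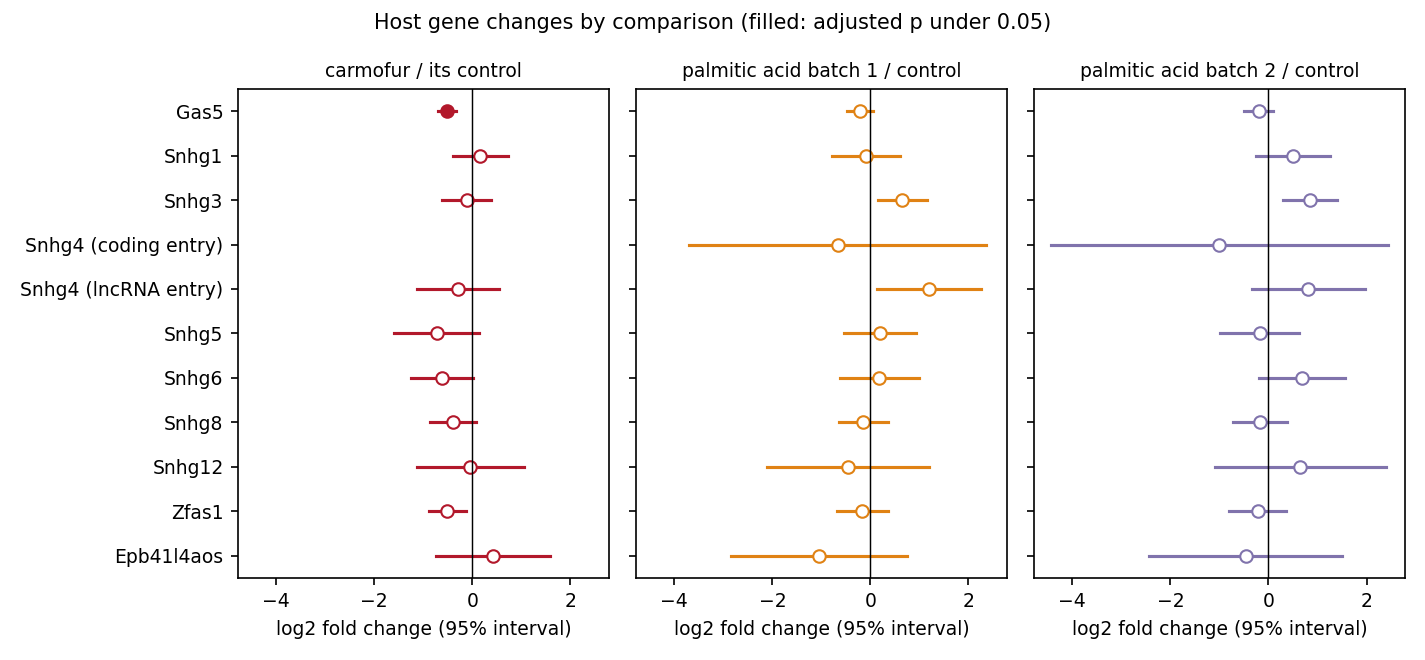
Log2 fold change of each host entry with its 95% interval, for carmofur, palmitic acid batch 1 and palmitic acid batch 2, each against its own controls; filled points passed an adjusted p of 0.05. Gas5 with carmofur is the filled point, at -0.51, and Snhg3 lies above 0 in both palmitic acid batches, at 0.65 and 0.84.

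The difference between the carmofur effect and the palmitic acid batch 1 effect was tested directly over all 35 libraries. It called 0 of the 10 hosts with an estimate, where 0.548% of 14052 genes were called higher and 0.142% lower. For Gas5 the difference was -0.30 ± 0.22 on the log2 scale (95% interval -0.73 to 0.14; edgeR adjusted p = 0.994). The Gas5 call with carmofur is therefore not shown to differ from the palmitic acid effect.

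Other host genes were read beside these 10. Of 41 coding genes that carry small nucleolar RNAs in introns, 20 fell and 1 rose with carmofur (3.8% and 5.21% of all genes), with a median log2 fold change of -0.26. The 24 ribosomal protein genes among them held 17 of the falls and no rise (median -0.33), led by Rpl3, a large-subunit protein, at 2936 ± 413 CPM with carmofur and 5007 ± 540 CPM in controls (log2 fold change -0.79 ± 0.06, edgeR adjusted p = 4.46e-11). Rpl32 (-0.43), Rps3 (-0.36) and Rpl12 (-0.62) had the next lowest p. Of the 17 other coding hosts, Eef2 (-0.37), Eef1b2 (-0.37) and Rack1 (-0.26), a pair of elongation factors and a ribosomal scaffold protein, fell, and Taf1d, a subunit of the RNA polymerase I selectivity factor, rose (0.59, adjusted p = 5.57e-05). None of the 7 further non-coding hosts tested passed, and their median was 0.37, with Snhg14 at 0.94, Snhg15 at 0.37, Snhg9 at 0.38 and Dancr at 0.57. In both palmitic acid batches 0 genes of these lists were called.

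**Figure D5:**
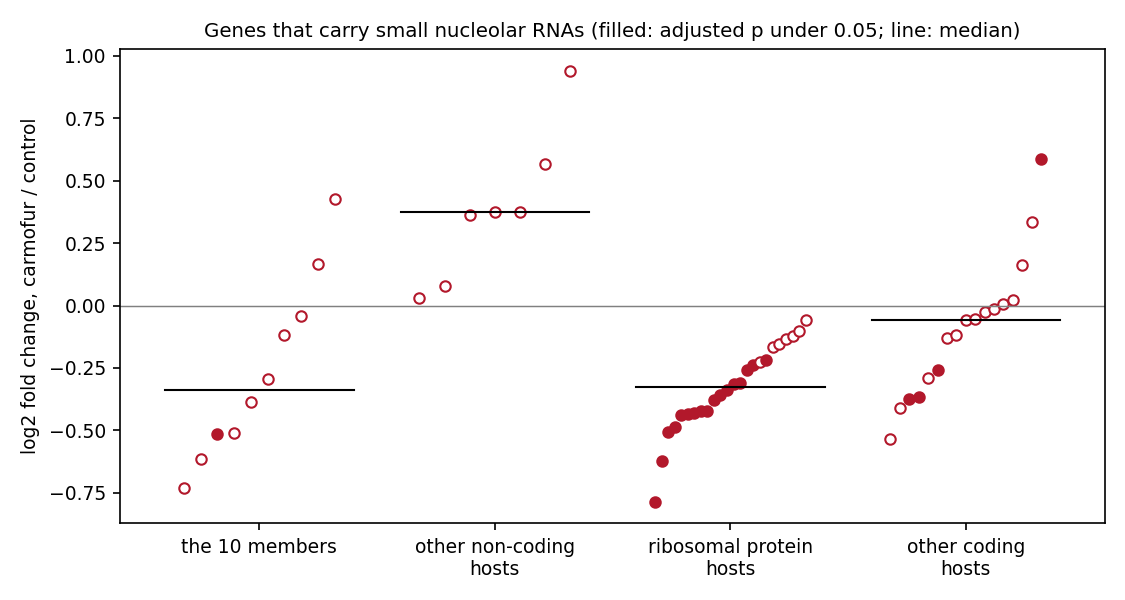
Log2 fold change with carmofur for the 10 host genes, 7 other non-coding hosts, 24 ribosomal protein hosts and 17 other coding hosts, with medians as lines and genes past an adjusted p of 0.05 filled. Medians are -0.34, 0.37, -0.33 and -0.06, and 17 of the 24 ribosomal protein hosts are filled, all below 0.

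Genes of the machinery around these RNAs were counted in the same way with carmofur, where 5.21% of all genes were called higher and 3.8% lower. Of 17 tested proteins that bind or assemble small nucleolar RNAs, 1 rose, the box C/D core protein Nop58 (232 ± 52.2 CPM with carmofur and 180 ± 26.6 CPM in controls; log2 fold change 0.35, edgeR adjusted p = 0.0383). None of 16 nonsense-mediated decay factors passed. Of 13 coding targets of that decay, Atf4, a stress-response transcription factor, fell (62.1 ± 21.3 CPM with carmofur and 111 ± 15.1 CPM in controls; -0.85, adjusted p = 0.000234). Of 17 exonuclease and decay genes, the exosome subunit Exosc2 rose (0.53, adjusted p = 0.000144) and the nuclear exonuclease Xrn2 fell (-0.42, adjusted p = 0.0229). Of 13 genes that control translation of pyrimidine-tract RNAs, Eif4ebp1, an inhibitor of cap-dependent translation, fell (-0.81, adjusted p = 0.000169). With palmitic acid 0 genes of these lists were called in either batch.

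At the hosts' own loci 1 of 7 tested neighbours was called with carmofur, lower, where 3.8% of all genes were called lower and 5.21% higher. Slc3a2, a heavy chain of amino acid transporters, starts 106 bases from Snhg1 on the opposite strand and fell to 83.4 ± 23.5 CPM with carmofur, against 126 ± 41.2 CPM in controls (log2 fold change -0.61 ± 0.15, edgeR adjusted p = 0.00587). Snhg1 itself had a log2 fold change of 0.17, and the difference between the pair was not tested. Rcc1, which overlaps Snhg3 on the same strand, Znfx1, which overlaps Zfas1 on the opposite strand, Matr3, Syncrip, Prss12 and Trnau1ap did not pass (log2 fold changes -0.45 to 0.93). Zbtb37, which overlaps the 5′ part of Gas5 on the opposite strand, was too low to test, at 1.59 CPM with carmofur and 1.88 CPM in controls. The kit keeps strand, but whether the counting used it is not given in the sources used here, so reads in overlaps are uncertain.

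The deviations of the hosts from their group means were weakly related. With each group's mean removed, the 45 pairs of hosts had Pearson r between -0.50 and 0.49 over 35 libraries, with a median of 0.09 and 27 above 0. Among 4462 genes with a mean of at least 20 CPM, those most like the hosts' mean included Actr1a (r = 0.60), Il33 (0.53), Smim26 (0.53), Rps12 (0.52), Rps3a1 (0.52), Tgs1 (0.52) and Rps21 (0.51). These correlations share libraries, depth and scaling, and are descriptions only.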

How the data were processed

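Salmon 1.3.0 and mm10 are named in the submitters' processing notes; the authors deposited 1 table of estimated counts by gene, held as whole numbers, and no annotation release is named. Libraries were made by poly(A) selection with a strand-keeping kit, per the labels' protocols. The table holds no column of an unlisted sample, and 1243 unnamed genes hold 0.0216% of counts. Within groups, the 178 library pairs had a chi-square per degree of freedom of at least 7.40, so no library was counted as a repeat.

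Tests used edgeR 4.0.16 in R 4.3.3 (TMM scaling, default expression filter, robust quasi-likelihood F test, Benjamini-Hochberg over all genes tested, threshold 0.05). The 27 carmofur libraries, the 8 palmitic acid libraries and all 35 were fitted separately, and the code was tested on simulated data. CPM are TMM-scaled. DESeq2 1.42.0, other scalings, filters, blocks and left-out libraries were alternatives. Host positions and small nucleolar RNAs came from GENCODE M21, promoters from RefSeq, and 31-base words shared between transcripts marked ambiguous entries.

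All 10 hosts are named, with up to 4 genes of lowest carmofur p per other list, genes overlapping or starting within 5000 bases of a host and a list of neighbours, and the 8 genes most like the hosts' mean. Some of the genes this rule names are left out of the text. The hosts and lists were chosen with earlier results of these data known.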

Additional observations from a re-analysis of the deposited data

How the results depend on the processing

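With carmofur the count of hosts called lower, 1 in the main analysis, was 2 with DESeq2 and 2 without library set 9, the added host being Zfas1. It was 0 with library sets summed and 0 in each of library blocks 1, 2 and 3 alone, which hold fewer samples. Gas5 was called in 18 of 22 alternatives, with log2 fold changes of -0.58 to -0.36; without each library set in turn it ran from -0.58 to -0.42 (adjusted p = 6.8e-05 to 0.00379), and with library block as a covariate it was -0.44. No host was called in any alternative for palmitic acid or for the difference between the carmofur and palmitic acid batch 1 effects. Same-numbered libraries did not deviate together (r = -0.02 to 0.05 over 12 carmofur pairs, and 1 of 12 libraries correlated best with its own number). No pairing by replicate number was seen, though such correlations cannot exclude one. With a replicate block, which leaves out carmofur replicates 13 to 15, 1 host was called lower, Gas5 at -0.55. Snhg12 changed sign in 9 of 22 alternatives and Snhg3 in 4. Summing the Snhg4 entries was chosen after seeing the data. It is 1 of the 22 carmofur alternatives but could change nothing there, because the protein-coding entry held 0 counts in those libraries. Depth limits the low hosts: Epb41l4aos had as few as 2 counts in a library.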

Other observations

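Gas5 taken alone, a choice made after the data were seen, followed ribosomal protein genes across libraries with group means removed. The 8 genes most like it over 35 libraries were Rps7 (r = 0.81), Rpl34 (0.78), Rps16 (0.78), Rpl26 (0.77), Vbp1 (0.74), Rpl37 (0.71), Rpl11 (0.69) and Rps18 (0.68). Vbp1, a subunit of the prefoldin chaperone, is the exception among them. These values share libraries, depth and scaling, and no test was made of them. Vbp1 averaged 115 CPM over the 35 libraries and the others from 1668 to 5470 CPM, whereas genes were compared from a mean of 20 CPM. Whether abundance shaped this ranking was not tested.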
